A study of Mus musculus with 9 samples.

Results

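The 41 genes described here encode the glucose transporters, the enzymes of glycolysis and of lactate export, the enzymes of the pentose phosphate pathway, and the proteins that sense oxygen together with a few genes they control. They were picked by symbol from a fixed list, and all 41 were found among the 45535 rows of the deposited table that carry a gene symbol. Their RNA was measured by sequencing in CD103+ dendritic cells from lungs of C57/BL6j mice given bleomycin, a drug that scars the lung, for 7 days. CD103 is the integrin encoded by Itgae, which in the lung marks most type 1 conventional dendritic cells. Cells were released with collagenase and pulled out on magnetic beads. The labels name CD103+ dendritic cells as the cell type, yet their extraction text speaks of RNA of the total lung, for samples of both groups. The 2 statements differ, and the values below are read as those of the bead-isolated cells that the series' design text describes. Samples are numbered within each group as in their titles. The 5 samples before culture were taken directly, and the 4 samples after culture had spent 18 h ex vivo in serum-supplemented RPMI with penicillin and streptomycin. Both groups received bleomycin, and no sample of untreated mice is used here. The labels give neither the age and sex of the mice, nor whether a sample came from 1 mouse or from pooled mice, nor the oxygen and glucose in the culture. Since nothing in them says that samples of a group came from separate animals, p-values here measure only the spread between these samples.

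Glycolysis splits glucose into pyruvate and yields a little ATP without oxygen. Pyruvate then either enters the mitochondria or is reduced to lactate, which leaves the cell with a proton. The pentose phosphate pathway branches off after the first step and makes NADPH, the reducing agent for lipid synthesis and antioxidant defence, and ribose for nucleotides. Many glycolytic genes are targets of hypoxia-inducible factor (HIF), a transcription factor whose alpha subunit is marked for destruction by prolyl hydroxylases when oxygen is present. Dendritic cells are known to raise glycolysis when they are activated through pattern receptors.

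Each sample held between 14.7 and 35.3 M reads assigned to named genes. Values below are the authors' normalized counts, and the filter on low values, a mean of 10 over all samples, was passed by all 41 genes. The isolated cells also held RNA of other lung cells. Markers of 13 cell types were read, 90 genes in all, and none of these was at 0 in every sample. The summed normalized count of 12 type 1 dendritic cell markers lay at 158050.3 to 188660.5 before culture and at 45637 to 48051 after it, and Itgae itself went from 18138 ± 1537 (SD, n = 5) to 1727 ± 335 (SD, n = 4). Of these 12 markers 9 fell and 3 rose. Over 11 neutrophil markers the sum was 13513 to 23233 before and 959.9 to 1818 after, with Ly6g at 0 in all 4 cultured samples and S100a9 going from 1968 to 6.15. The sum over 10 endothelial markers was 26119.5 to 37902 and 3387 to 4499.6. Fibroblast, alveolar epithelial, alveolar macrophage, plasmacytoid dendritic cell, NK cell and erythroid sums were also lower after culture without overlap. Those of monocytes and interstitial macrophages, type 2 dendritic cells, T cells and B cells overlapped between the groups. A sum can hide genes that moved apart. In the test given below, 4 of 8 monocyte and interstitial macrophage markers were lower and 4 did not pass. Of 5 type 2 dendritic cell markers 3 were lower and 1 higher. Of 5 T cell and of 5 B cell markers, 1 each was lower and 1 higher. Of 5 alveolar macrophage markers tested, 3 were lower and 2 did not pass. Over all tested genes 34.2% were higher and 34.6% lower. The part of these marker changes in the results that follow was not tested, and in bulk RNA fewer cells of a type cannot be told apart from less RNA per cell.

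With culture some of the 41 genes rose and others fell. Pfkfb3, which drives the allosteric activator of glycolysis, rose 8.27-fold, and Pgd and G6pdx, both NADPH-making enzymes of the pentose phosphate pathway, rose 3.10-fold and 2.01-fold. The glucose transporter Slc2a3 fell to a level 5.82-fold lower, the phosphofructokinase Pfkp to one 5.35-fold lower and the lactate exporter Slc16a3 to one 3.22-fold lower. Gapdh, Pkm and Eno1, which are among the most abundant of the set per kilobase, did not pass the test. With limma and Benjamini-Hochberg adjustment over all 18202 genes tested, 27 of the 41 genes (65.9%) passed an adjusted p of 0.05, 12 of them higher after culture and 15 lower. Over all tested genes the share called was 68.8% (34.2% higher and 34.6% lower), so the count for these 41 is close to the background. At least 2-fold and past the test were 10 genes, 5 higher and 5 lower, where 32.7% of all tested genes were, 14.1% higher and 18.6% lower. In 23 of the 41 the groups did not overlap, with the cultured samples above in 10 and below in 13, against 57.3% of all genes in either direction, 28.7% above and 28.6% below. The median log2 fold change over the 41 was −0.18 and that over all genes was 0.01, while the median size without sign was 0.54 against 0.64.

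One processing choice shifts these numbers as a whole. A correction was made for each sample's trend over GC content and the length of a gene's annotated exons, merged. It turned the split among the 40 genes with both values, all but Aldoa, to 17 higher and 12 lower. Of all genes 67.9% were then called, 39.6% higher and 28.4% lower. The correction took the median of these 40 genes to 0.10, where the median of all genes also moved, to 0.13. Under it the calls of Pfkl, Pgls and Egln1 ended, 9 genes took the other sign, and Hk1, Pfkfb4, Pgam1, Eno1 (0.73), Pkm (0.70) and Tkt (0.50) were called higher. The 10 genes with a change of at least 2-fold kept their direction and call under every alternative run.

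**Figure D1:**
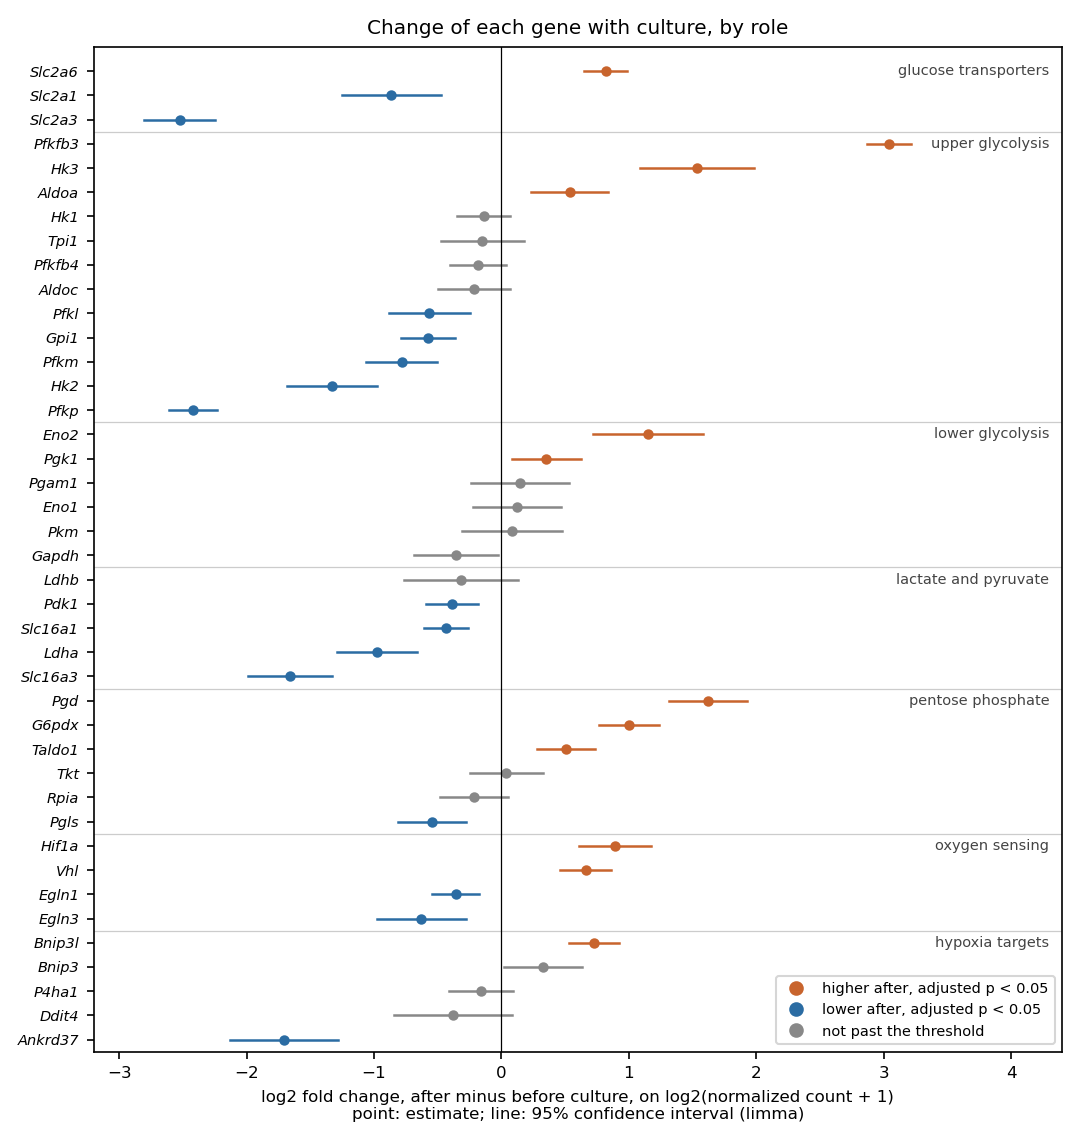
Log2 fold change after against before culture (x axis, log2 scale) of each of the 41 genes (y axis), ordered within 7 roles, with a point for the limma estimate and a line for its 95% confidence interval. Orange genes passed the threshold as higher after culture (12), blue as lower (15) and grey did not pass (14). Pfkfb3 stands furthest to the right at 3.04 and Slc2a3 furthest to the left at −2.53.

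**Figure D2:**
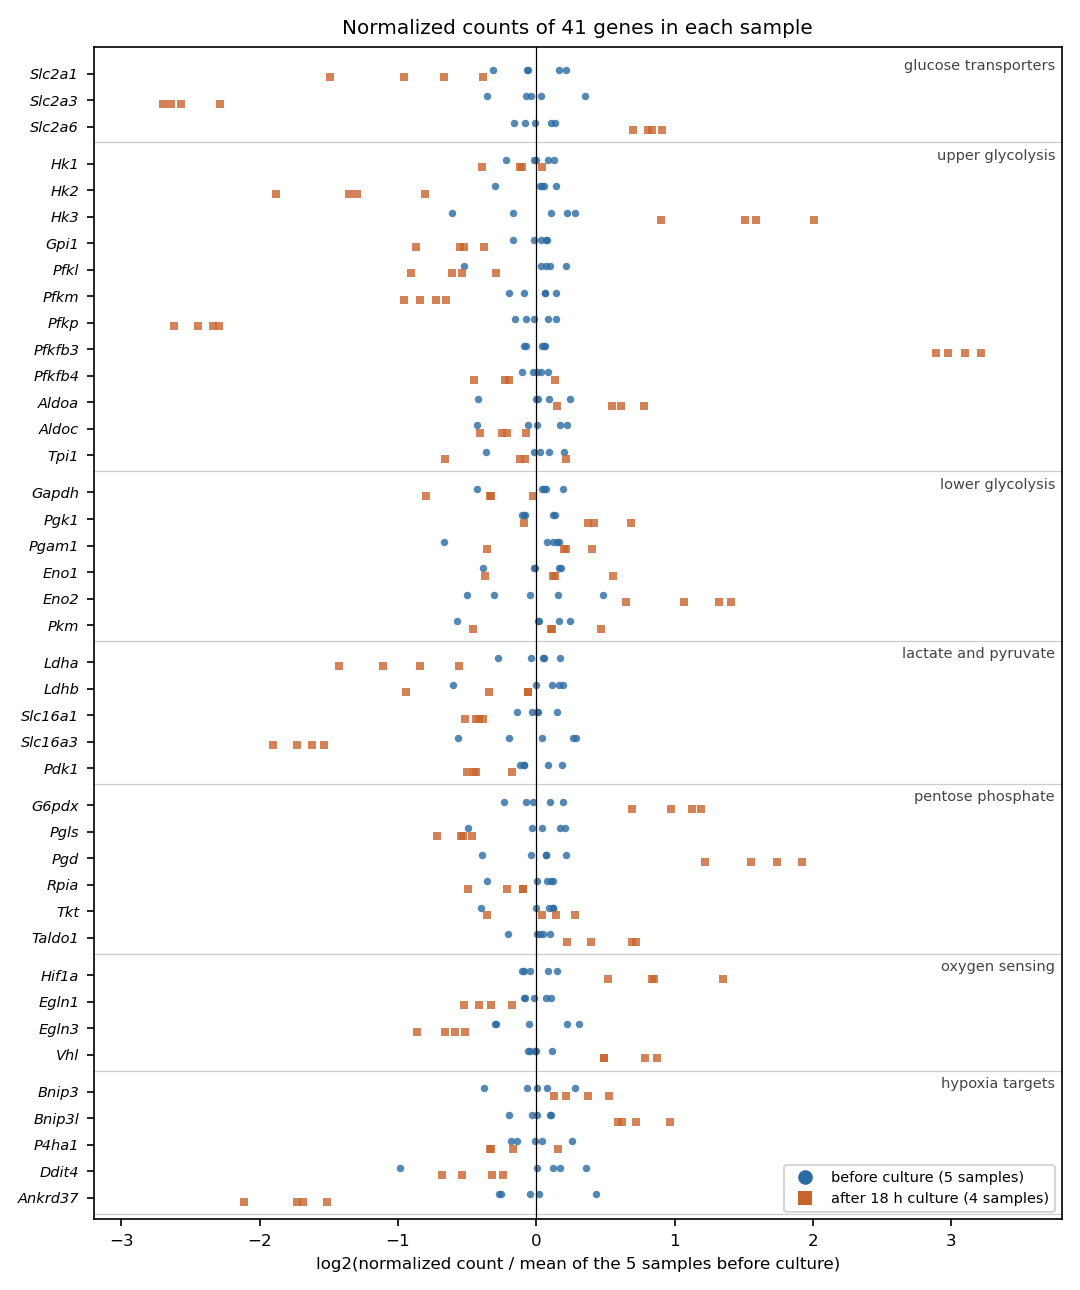
Normalized count of each gene in each sample, as log2 of the value over the mean of the 5 samples before culture (x axis), with blue circles for samples before and orange squares for samples after culture. In Pfkfb3, Pgd, Slc2a3, Pfkp and Slc16a3 the groups lie apart, and in Gapdh, Pkm, Eno1, Tpi1 and Tkt they overlap.

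Promoter sequence was set beside the direction of change, since HIF binds a short core (ACGTG or GCGTG) and the oxidant-responsive factor NRF2 binds a core of the form TGACNNNGC. Windows of 300 bases, 250 before to 50 after each start, were taken from RefSeq (GRCm38.p6) and searched on both strands. A palindromic CACGTG counts as ACGTG on each strand. Of the 41 genes 39 matched, with 53 promoters. ACGTG was in 26 of these (49.1%) against 19.6% of all 32851 promoters, GCGTG in 32 (60.4%) against 32.4%, and TGACNNNGC in 6 (11.3%) against 12.4%. Base composition moved with this, since the 53 held 61.4% G and C and 20.1 CpG each against 53.8% and 12.4 over all, and its part in the motif counts was not tested. Either HIF core was in 43 of the 53 promoters (81.1%), against 43.8% of all promoters. It was found for 35 of the 39 genes, so its presence could hardly divide them by direction. Counted by gene, over any of its windows, either core was found for 9 of 11 genes that rose and 13 of 14 that fell. The same count was 13 of 14 for genes that did not pass the test. TGACNNNGC was found for 3 of the 11, 1 of the 14 and 2 of the 14. A match describes letters in the window and shows no binding.

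Printed are the promoters of 2 genes that rose, Pfkfb3 and G6pdx, and of 3 HIF-related genes that fell, Ldha, Slc16a3 and Ankrd37. They were picked by direction of change, as examples of HIF cores in front of genes moving either way, and are no test. Each is written 5′ to 3′ on the gene's own strand, with each match of these 3 motifs on either strand in capitals (a match on the other strand reads as the reverse complement).
Pfkfb3, chr2:11502041-11502340, minus strand: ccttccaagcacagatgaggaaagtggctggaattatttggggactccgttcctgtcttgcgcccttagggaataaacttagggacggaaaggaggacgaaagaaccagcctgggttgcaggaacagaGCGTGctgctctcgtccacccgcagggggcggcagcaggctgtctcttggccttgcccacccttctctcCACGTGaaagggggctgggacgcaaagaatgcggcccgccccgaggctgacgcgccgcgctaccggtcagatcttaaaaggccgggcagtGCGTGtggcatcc
G6pdx, chrX:74428831-74429130, minus strand: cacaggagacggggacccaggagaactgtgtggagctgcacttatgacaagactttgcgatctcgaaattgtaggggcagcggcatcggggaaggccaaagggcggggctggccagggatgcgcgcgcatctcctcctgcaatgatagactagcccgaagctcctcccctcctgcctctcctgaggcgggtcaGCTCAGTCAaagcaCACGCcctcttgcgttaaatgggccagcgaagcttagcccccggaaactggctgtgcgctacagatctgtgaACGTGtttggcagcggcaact
Ldha, chr7:46845554-46845853, plus strand: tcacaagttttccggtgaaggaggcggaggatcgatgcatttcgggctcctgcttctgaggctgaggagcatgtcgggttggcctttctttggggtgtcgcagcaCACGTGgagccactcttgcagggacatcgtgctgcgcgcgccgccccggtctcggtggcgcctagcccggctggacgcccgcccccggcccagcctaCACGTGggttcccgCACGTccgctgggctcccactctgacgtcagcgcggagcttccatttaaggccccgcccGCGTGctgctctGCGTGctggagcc
Slc16a3, chr11:120948817-120949116, plus strand: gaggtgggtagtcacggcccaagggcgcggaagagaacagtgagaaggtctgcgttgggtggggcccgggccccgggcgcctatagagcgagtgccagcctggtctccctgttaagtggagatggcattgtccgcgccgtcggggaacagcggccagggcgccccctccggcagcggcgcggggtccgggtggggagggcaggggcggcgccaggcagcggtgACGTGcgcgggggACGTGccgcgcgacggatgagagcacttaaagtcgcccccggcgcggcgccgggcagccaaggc
Ankrd37, chr8:45999801-46000100, minus strand: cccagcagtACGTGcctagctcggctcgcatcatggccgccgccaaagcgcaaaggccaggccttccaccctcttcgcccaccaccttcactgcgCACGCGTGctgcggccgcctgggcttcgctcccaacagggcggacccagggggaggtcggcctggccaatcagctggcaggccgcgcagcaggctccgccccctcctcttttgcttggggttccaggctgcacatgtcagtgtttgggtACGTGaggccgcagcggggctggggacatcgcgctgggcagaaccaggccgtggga
The Ldha window carries 5 matches of ACGTG, from 2 palindromes and 1 single site, and 2 of GCGTG. That of G6pdx holds 1 of each HIF core and, of these 5, is the one with a TGACNNNGC match. Pfkfb3 and Ldha each have a further window in the table that is not printed.

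The facilitative glucose transporters among the 41 are GLUT1 (Slc2a1), GLUT3 (Slc2a3) and GLUT6 (Slc2a6). GLUT1 and GLUT3 carry glucose across the cell surface, GLUT3 with a high affinity, and GLUT6 lies largely on lysosomes of macrophages. Slc2a3 (chr6:122727809-122801640, minus strand, GRCm38 by GENCODE M21) fell the furthest of the 41 genes. Its normalized counts were 1097, 1334, 1437, 1370.2 and 1795 in samples 1 to 5 before culture and 216, 226, 288 and 237 in samples 1 to 4 after it (limma log2 fold change −2.53, SE 0.130, adjusted p = 1.52e-09). Every cultured sample thus lay below every uncultured one by a wide margin. Neutrophils also express Slc2a3. The median summed normalized count of 11 neutrophil markers was 16384 before and 1341 after culture with no overlap between groups, and its part in this change was not tested. Slc2a1 gave 4009, 3975, 4679, 3353 and 4840.1 before and 2621, 3190.3, 1486 and 2148 after culture (limma log2 fold change −0.86, SE 0.179, adjusted p = 7.61e-04). The highest cultured sample, number 2, came close to the lowest uncultured one, number 4. Slc2a6 moved the other way, from 1668, 1852, 2047, 1763 and 2016 to 3515, 3041, 3343 and 3271 (limma log2 fold change 0.82, SE 0.0790, adjusted p = 7.66e-07), again without overlap. Per kilobase of mRNA, Slc2a6 made up 35.0 ± 1.79% of the 3 transcripts before culture (SD, n = 5) and 66.6 ± 6.96% after it (SD, n = 4), while Slc2a3 went from 14.1 ± 1.60% to 2.66 ± 0.577%. The summed level per kilobase was 2509 ± 297 before and 2325 ± 191 after, so the make-up of the set moved while its sum differed by less than the spread between samples.

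Of the 12 genes from hexokinase to triose phosphate isomerase 3 rose, 5 fell and 4 did not pass the test. The share called was 66.7%, close to the 68.8% of all tested genes (34.2% higher and 34.6% lower). Hexokinases trap glucose as glucose 6-phosphate. Hk2, the inducible form, fell from 5103, 5148, 5217, 4064 and 5520.3 to 2038, 2864, 1357 and 1958 (limma log2 fold change −1.33, SE 0.165, adjusted p = 8.63e-06). Hk3, a form found mainly in myeloid cells, rose from 525, 687, 716, 387 and 635 to 1775, 2371, 1101 and 1679 (limma log2 fold change 1.53, SE 0.209, adjusted p = 2.04e-05). Neither gene's groups overlapped, although the cultured samples of both were spread widely, with sample 3 the lowest and sample 2 the highest. Hk1, the widely expressed form, did not pass the test (limma log2 fold change −0.14, SE 0.0958, adjusted p = 0.215, 95% interval −0.34 to 0.07). Per kilobase, Hk2 was the leading hexokinase before culture at 57.0 ± 1.69% of the 3. The share of Hk3 went from 11.4 ± 1.56% to 38.8 ± 2.68%, and that of Hk1 was 34.3 ± 4.25% after culture, so these 2 overlapped and Hk1 was ahead in cultured sample 3.

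The next enzyme, glucose 6-phosphate isomerase (Gpi1), fell from 13143 ± 876 (SD, n = 5) to 8860.4 ± 1224 (SD, n = 4), with limma log2 fold change −0.58, SE 0.0973, adjusted p = 1.39e-04 and no overlap. Phosphofructokinase then commits the sugar to glycolysis, and all 3 of its genes fell, Pfkl only without the GC and length correction. Pfkp, the platelet type and the main one here, went from 10733, 9093, 9588, 10011 and 11177 to 2063, 1999, 1646 and 1856 (limma log2 fold change −2.42, SE 0.0860, adjusted p = 4.57e-11). Its values within each group lay close together, so the gap between the groups was many times their spread. Pfkp lies at chr13:6579768-6648777 on the minus strand (GENCODE M21, GRCm38) and overlaps Pitrm1, at a mean of 1190.0, on the opposite strand over 5.58% of its exon bases. Pfkm, the muscle type, fell from 177 ± 16.6 to 102 ± 9.33 (limma log2 fold change −0.78, SE 0.129, adjusted p = 1.16e-04), and Pfkl, the liver type, from 1491 ± 264 to 1004 ± 174 (limma log2 fold change −0.56, SE 0.147, adjusted p = 0.00383). The Pfkl groups overlapped through uncultured sample 4, at 1038, and with the GC and length correction Pfkl lost its call and its sign (0.044, adjusted p = 0.750). Summed per kilobase, phosphofructokinase transcripts went from 2903 ± 211 to 761 ± 89.7, and the share of Pfkp in them from 84.1 ± 2.66% to 60.1 ± 2.28%.

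PFKFB enzymes make fructose 2,6-bisphosphate, the strongest activator of phosphofructokinase, and the PFKFB3 form has the highest kinase activity. Pfkfb3 (chr2:11471433-11554077, minus strand) gave 3962, 3615, 4027, 3659 and 3992 before culture and 32916, 28499.7, 35693 and 30280.3 after it (limma log2 fold change 3.04, SE 0.0800, adjusted p = 4.56e-12). The values of each group stayed within a narrow band and the cultured samples lay far above. Per kilobase, Pfkfb3 moved from place 21 among the 41 genes to place 5, with a mean level of 831 before and 6872 after. Pfkfb4 did not pass (1273 ± 61.0 against 1131 ± 194, limma log2 fold change −0.18, SE 0.102, adjusted p = 0.123), and the share of Pfkfb3 in both went from 69.5 ± 1.48% to 95.4 ± 1.15%. The fall of the enzyme genes Pfkp and Pfkm and the rise of Pfkfb3 were thus measured in the same 4 samples.

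Aldolase cuts the sugar bisphosphate, and triose phosphate isomerase interconverts the products. Aldoa, the main aldolase, gave 11597, 12269, 13660.3, 8601 and 11513 before and 16883, 19767, 12759 and 17608 after culture (limma log2 fold change 0.54, SE 0.140, adjusted p = 0.00383). It passed the test although cultured sample 3 lay below uncultured sample 3. Aldoa has 2 gene IDs under its symbol in the annotation and was left out of the GC and length correction. Of its 50-base windows 13.5% also occur in other transcripts. Aldoc (limma log2 fold change −0.22, SE 0.131, adjusted p = 0.154) and Tpi1 (limma log2 fold change −0.15, SE 0.152, adjusted p = 0.400) did not pass.

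In the later steps of glycolysis, which run from glyceraldehyde 3-phosphate to pyruvate, 2 of 6 genes passed, both higher, and no gene was called lower. Over all tested genes 68.8% were called, and a list of 6 is too short to set against that share. Gapdh, the enzyme that makes NADH, was the most abundant of the 41 per kilobase in both groups. It gave 35491, 35054, 39031, 25364 and 35811 before culture and 27204, 33524, 19641 and 27059 after it and missed the threshold (limma log2 fold change −0.36, SE 0.152, adjusted p = 0.0512). That call was not stable, since Gapdh passed in limma without uncultured sample 4 (−0.46, adjusted p = 0.00771) and without cultured sample 2 (−0.47, adjusted p = 0.0123). It also passed on recovered reads with edgeR's quasi-likelihood test (adjusted p = 0.0409) and with DESeq2 (adjusted p = 0.0317). Quantile normalization, a block for the library number, and leaving out both libraries numbered 4 or both numbered 3 gave the call too. The GC and length correction, however, took the change to −0.031 (limma adjusted p = 0.850). Pkm, pyruvate kinase, gave 17950.1, 17885, 21017, 11884 and 19865 before and 19123, 24450.4, 12910.2 and 19023 after culture and did not pass (limma log2 fold change 0.082, SE 0.182, adjusted p = 0.708, 95% interval −0.31 to 0.48). Both groups of Pkm cover nearly the same range. Eno1 gave 11807, 11899, 13376, 9165 and 13507 and 12971, 17562, 9255 and 13129 and did not pass either (limma log2 fold change 0.12, SE 0.159, adjusted p = 0.507). The same held for Pgam1, phosphoglycerate mutase (limma log2 fold change 0.14, SE 0.178, adjusted p = 0.487). Eno2, the neuronal enolase, rose from 209, 151, 261, 132 and 181 to 466, 293, 495 and 392 (limma log2 fold change 1.15, SE 0.200, adjusted p = 1.84e-04), and made up 1.11 ± 0.208% of both enolases per kilobase before culture and 2.40 ± 1.05% after it. Pgk1, phosphoglycerate kinase, was called higher (3019 ± 256 to 3911 ± 824, limma log2 fold change 0.35, SE 0.125, adjusted p = 0.0233), but its groups overlapped. The call was lost without uncultured sample 1 or 2 or cultured sample 1, 2 or 4, with an adjusted p of up to 0.0793. It was also lost without both libraries numbered 3 (0.27, limma adjusted p = 0.0681).

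These genes have many near-identical pseudogene copies, so reads could be split between them. Of the 50-base windows of the transcript, 72.2% in Eno1, 68.0% in Pgk1, 41.5% in Pgam1, 34.4% in Pkm and 27.8% in Gapdh occur elsewhere in the annotated transcripts. The closest copies had mean normalized counts of 2.54 (Eno1b), 0.431 (Pgk1-rs7), 3.37 (Pgam1-ps2), 8.64 (Gm6560) and 0.569 (Gm7336). Pkm also shares 15.3% of its exon bases with Gm49759 on the same strand, which had a mean of 1292. Levels of these genes are therefore less certain than those of genes without copies.

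Lactate dehydrogenase turns pyruvate into lactate, and monocarboxylate transporters carry lactate out of the cell. In this group 4 of 5 genes fell and none rose. Over all tested genes 34.2% were higher and 34.6% lower, and a list of 5 is too short to set against these shares. Ldha, the lactate-forming subunit, gave 8793, 8268, 9546, 6993 and 8779.9 before culture and 4727, 5748, 3160.0 and 3927 after it (limma log2 fold change −0.98, SE 0.145, adjusted p = 4.70e-05), with no overlap, and 16.6% of its windows are shared with other transcripts. Slc16a3 (MCT4), the exporter of highly glycolytic cells, went from 3277, 3869.6, 4524, 2538 and 4577 to 1299, 1224, 1006 and 1131 (limma log2 fold change −1.66, SE 0.153, adjusted p = 4.72e-07). Its lowest uncultured value, in sample 4, stayed well above the highest cultured one, in sample 1. Slc16a1 (MCT1), which carries lactate in both directions, fell less, from 764 ± 55.3 to 564 ± 21.8 (limma log2 fold change −0.43, SE 0.0804, adjusted p = 3.05e-04). Pdk1, the kinase that shuts pyruvate dehydrogenase, fell from 820.0 ± 77.7 to 627 ± 65.7 (limma log2 fold change −0.39, SE 0.0953, adjusted p = 0.00263). Ldhb, the subunit that favours pyruvate, did not pass (limma log2 fold change −0.32, SE 0.207, adjusted p = 0.185), and 27.0% of its windows are shared. The Ldha and Slc16a3 promoters printed above both carry ACGTG near the start site.

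Of the 6 pentose phosphate genes 3 rose, 1 fell and 2 did not pass the test. The share called was 66.7%, close to the 68.8% of all tested genes (34.2% higher and 34.6% lower). In the oxidative branch, glucose 6-phosphate dehydrogenase (G6pdx) makes the first NADPH, and gave 2706, 2799, 3254, 2426 and 3050.1 before and 5579, 6500.4, 4598 and 6204 after culture (limma log2 fold change 1.00, SE 0.109, adjusted p = 2.53e-06). Phosphogluconate dehydrogenase (Pgd) makes the next NADPH and gave 4493, 4847, 5344, 3512 and 4842 and 13518, 17439, 10720.2 and 15402 (limma log2 fold change 1.62, SE 0.141, adjusted p = 2.68e-07). For both, every cultured sample lay above every uncultured one. The step between them, the lactonase Pgls, fell from 1716 ± 302 to 1162 ± 85.6 (limma log2 fold change −0.54, SE 0.125, adjusted p = 0.00157) with overlapping groups and not with the GC and length correction (0.035, adjusted p = 0.769), and 20.6% of its exon bases overlap Fam129c on the same strand. In the non-oxidative branch, which returns pentoses to glycolysis, transaldolase (Taldo1) rose from 5949 ± 460.5 to 8537 ± 1388 (limma log2 fold change 0.51, SE 0.106, adjusted p = 7.44e-04). Transketolase (Tkt, 9781 ± 1361 against 10092 ± 1788, limma log2 fold change 0.039, SE 0.133, adjusted p = 0.808) and ribose 5-phosphate isomerase (Rpia, limma log2 fold change −0.21, SE 0.123, adjusted p = 0.139) did not pass. G6pdx overlaps Ikbkg on the opposite strand over 13.6% of its exon bases, and strandedness of the counting is not given in the sources used here.

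Oxygen is sensed by the prolyl hydroxylases, whose mark lets VHL tag HIF-1 alpha for destruction. All 4 genes of this machinery passed the test, 2 up and 2 down, and in none did the groups overlap. Over all tested genes 68.8% passed, and in 57.3% the groups did not overlap. A list of 4 genes is too short to set against these shares. Hif1a gave 5158, 5367, 6137, 5204 and 5866 before culture and 10019, 14114, 7954 and 9896 after it (limma log2 fold change 0.89, SE 0.131, adjusted p = 4.02e-05). Cultured sample 2 was the highest and sample 3 the lowest of the cultured group, yet all were above every uncultured sample. Vhl, which acts against HIF-1 alpha protein, rose as well, from 965 ± 46.7 to 1535 ± 214 (limma log2 fold change 0.66, SE 0.0925, adjusted p = 2.70e-05). The hydroxylase genes fell, Egln1 from 1117 ± 69.2 to 874 ± 89.7 (limma log2 fold change −0.36, SE 0.0853, adjusted p = 0.00210) and Egln3, itself a HIF target, from 157 ± 31.0 to 100.3 ± 10.2 (limma log2 fold change −0.63, SE 0.162, adjusted p = 0.00352). With the GC and length correction Egln1 lost its call and its sign (0.14, adjusted p = 0.104). HIF-1 alpha is regulated mainly as protein, which RNA counts do not show.

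The 5 genes grouped here as hypoxia targets did not move together. HIF targets that belong to other steps are given with those steps. Ankrd37 gave 95.2, 111, 155, 96.3 and 116 before and 26.5, 35.6, 34.6 and 40.3 after culture (limma log2 fold change −1.71, SE 0.196, adjusted p = 4.07e-06), all cultured samples lying below. It is read at a low level and overlaps Lrp2bp, at a mean of 29.8, on the opposite strand over 22.7% of its exon bases. Bnip3l, a receptor for the removal of mitochondria, rose from 2098 ± 172 to 3485 ± 432 (limma log2 fold change 0.73, SE 0.0912, adjusted p = 9.55e-06). Pseudogene copies share 23.4% of its windows. Its relative Bnip3, with 62.4% of windows shared, did not pass (limma log2 fold change 0.32, SE 0.142, adjusted p = 0.0566), and passed without uncultured sample 3 (0.40, adjusted p = 0.0260) or cultured sample 1 (0.39, adjusted p = 0.0455), under TMM, upper quartile or quantile scaling, with DESeq2 on the recovered reads, with a block for the library number, and without both libraries numbered 4. P4ha1, a collagen prolyl hydroxylase, did not pass (limma log2 fold change −0.16, SE 0.117, adjusted p = 0.239). Ddit4, an inhibitor of mTORC1, gave 1421, 1371, 1623, 639 and 1266 before and 1014, 1067, 786 and 871 after culture and did not pass (limma log2 fold change −0.38, SE 0.215, adjusted p = 0.133). Its uncultured sample 4 lay below every other sample of either group, and without it Ddit4 was called lower (−0.61, adjusted p = 2.47e-04).

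Ratios of genes of 1 family within a sample do not depend on the factor that scales each sample, so they show changes in the make-up of each step. The GC and length correction acts on each gene and can change a ratio, and the ratios were not run under it. Of 13 ratios, 9 passed an adjusted p of 0.05, and these had no overlap between groups. Each of the 9 had a two-sided exact permutation p of 0.0159, the smallest that the 126 possible groupings of 9 samples into 5 and 4 allow, and 0.0229 after Benjamini-Hochberg adjustment over the 13. The largest change was in Pfkfb4 over Pfkfb3, whose log2 ratio of normalized counts went from −1.60 ± 0.0991 (SD, n = 5) to −4.82 ± 0.375 (SD, n = 4). On the same scale Pfkp over Pfkl changed by −1.86, Slc2a6 over Slc2a1 by 1.68, Hk3 over Hk1 by 1.67 and Slc2a3 over Slc2a1 by −1.66. Slc16a3 over Slc16a1 changed by −1.23, Hk2 over Hk1 by −1.19, Ldhb over Ldha by 0.66 and Bnip3l over Bnip3 by 0.40. Not past the threshold were Pfkm over Pfkl (−0.22, exact permutation p adjusted 0.111) and, each at an adjusted exact p of 0.0516, Aldoc over Aldoa (−0.76), Eno2 over Eno1 (1.02) and Egln3 over Egln1 (−0.27). Without cultured sample 1 none of the 13 passed, at an adjusted p of 0.0516 for the 9, where 8 samples allow fewer groupings.

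**Figure D3:**
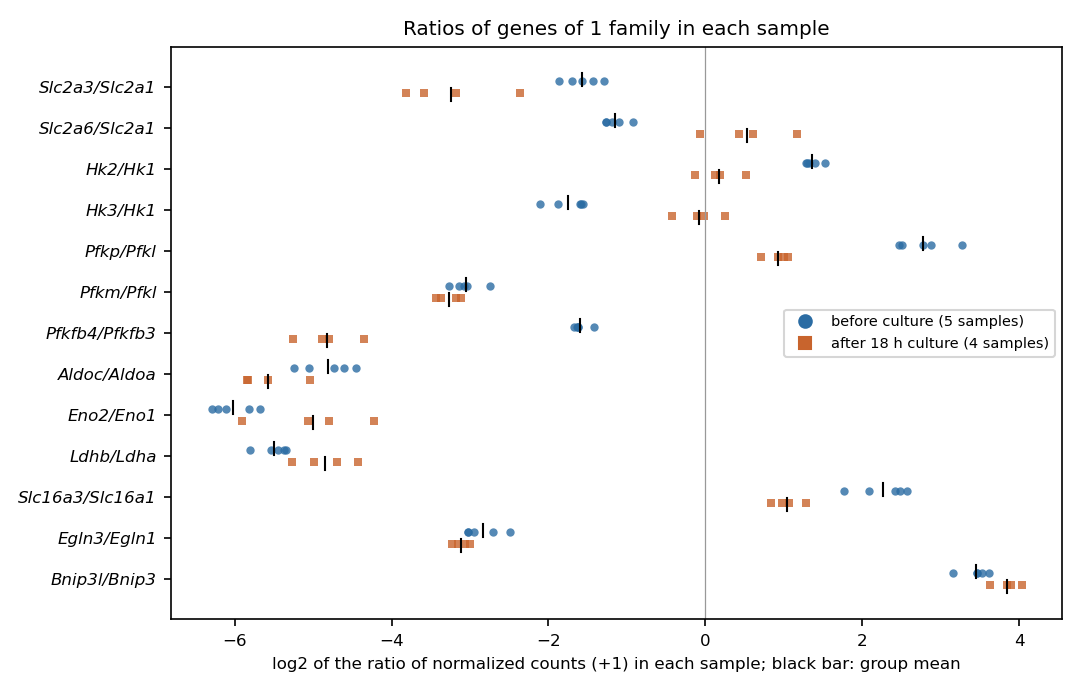
Log2 ratio of normalized counts of genes of 1 family (x axis) for 13 ratios (y axis) in each sample, with blue circles before and orange squares after culture and a black bar for each group mean. The level of a ratio also holds the 2 genes' lengths, so only its shift between groups is read. Pfkfb4/Pfkfb3 shifts the furthest, by −3.23, and Pfkm/Pfkl the least, by −0.22.

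Within each group, single libraries stood low or high in most of the 41 genes. Uncultured sample 4 was the lowest of its group in 28 of the 41 genes (68.3%), where it was the lowest in 30.4% of all genes, and cultured sample 3 was the lowest in 28 of the 41, against 33.7% of all genes. Cultured sample 2 was the highest in 27 of 41, against 33.0% of all genes, and uncultured sample 3 in 24, against 21.1%. Aldoa, Tpi1, Gapdh, Pgk1, Pgam1, Eno1 and Pkm, 7 enzymes in the trunk of glycolysis, were taken as a set after their values were seen. Their median log2 deviation from the group mean was −0.41 in uncultured sample 4 and −0.47 in cultured sample 3, and 0.21 in uncultured sample 3 and 0.35 in cultured sample 2, where all 7 were at their highest. Over all genes these medians lay between −0.01 and 0.02. By their library names, uncultured sample 4 and cultured sample 3 carry the number 4, and uncultured sample 3 and cultured sample 2 the number 3. What the number stands for is not given in the sources used here.

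Markers of other cells differed along with these libraries. The summed normalized count of 8 markers of monocytes and interstitial macrophages was lowest of its group in uncultured sample 4 (31504) and cultured sample 3 (19336), and highest in uncultured sample 3 (57837) and cultured sample 2 (43576). The sum of 5 type 2 dendritic cell markers had the same lowest and highest samples. Alveolar epithelial markers were highest in uncultured sample 4 (40368) and cultured sample 3 (8162). The part of these mixtures in the spread of the glycolytic genes was not tested. Leaving out both libraries numbered 4, a choice made after these values were seen, gave 31 of 41 genes called, 13 higher and 18 lower, where 69.3% of all genes were called, 34.4% higher and 34.9% lower. Leaving out both numbered 3 gave 28, 11 higher and 17 lower, where 65.1% of all genes were called, 32.2% higher and 32.9% lower.

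**Figure D4:**
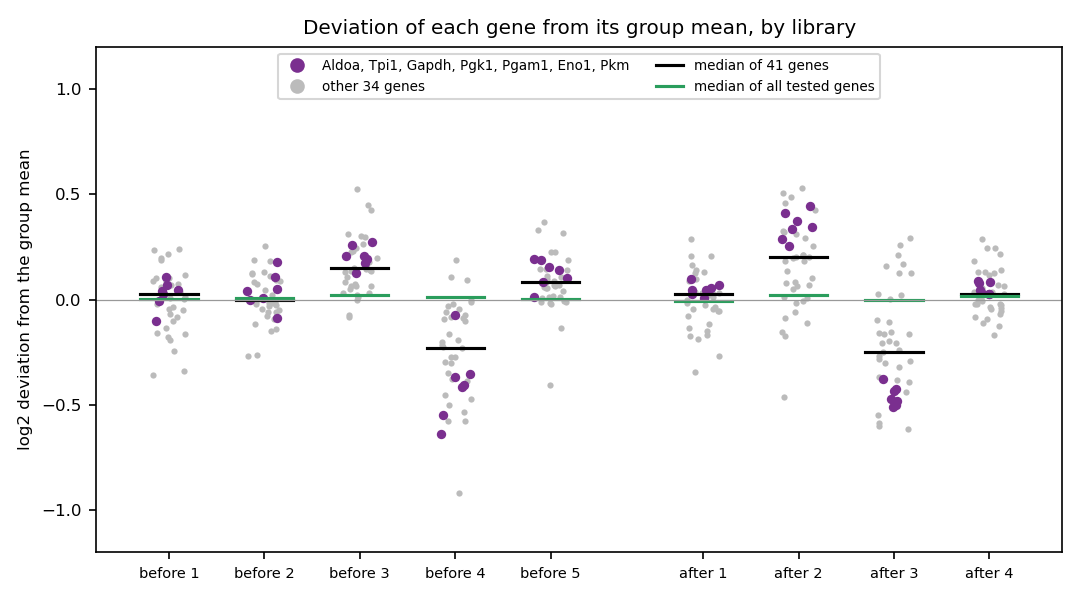
Log2 deviation of each of the 41 genes from its group mean (y axis) in each sample (x axis), with 7 enzymes of the glycolytic trunk in purple, the other 34 genes in grey, black bars for the median of the 41 and green bars for the median of all tested genes. Purple points sit below 0 in before 4 and after 3 and above 0 in after 2, while the green bars stay near 0 in all 9 samples.

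Other genes of the same pathways, from lists that hold none of the 41, were read in the same fit. Of 68 tested 50 were called, 18 higher and 32 lower. With the GC and length correction 41 of 67 were called, 19 higher and 22 lower. Under that correction 39.6% of all genes were higher and 28.4% lower. Values of single genes below are without it. Of 28 tested genes of sugar entry, glycolysis and pyruvate use, 7 rose and 14 fell. These are 75.0% of the 28, against 68.8% of all genes (34.2% higher and 34.6% lower). Those with the smallest adjusted p among the risers were Mpc1, a subunit of the mitochondrial pyruvate carrier (0.66, adjusted p = 9.70e-06), Dld, a subunit of pyruvate dehydrogenase (0.54, 4.17e-05), and Tigar, a fructose bisphosphatase that steers sugar toward the pentose pathway (0.80, 1.11e-04). Among the fallers the smallest were those of Adpgk, an ADP-dependent kinase of glucose (−0.88, adjusted p = 2.60e-07), and Khk, fructokinase (−1.79, 1.15e-06). The 4 pyruvate dehydrogenase subunits that passed were split, since Dld, Dlat (0.40) and Pdhx (0.43) rose and Pdhb (−0.59) fell. Dlat, Pdhx and Pdhb were chosen after their values were seen.

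Of 8 other pentose phosphate genes 4 rose and 3 fell, a list too short to set against the 68.8% of all genes. Rpe, which epimerises ribulose 5-phosphate (0.83, adjusted p = 5.82e-06), Rbks, ribokinase (0.42, 0.0102), and Dera, an aldolase of deoxyribose phosphate (0.31, 0.0148), led the rises. Tktl1, a transketolase relative (−2.95, 1.03e-05), Prps2, which makes the activated ribose for nucleotides (−0.36, 0.00324), and Shpk, sedoheptulokinase (−0.43, 0.0195), were the 3 that fell.

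Of 32 other hypoxia genes 7 rose and 15 fell, with a median log2 fold change of −0.24. The share called, 68.8%, equals that of all genes. By direction, 34.2% of all genes were higher and 34.6% lower, whereas more of this list fell than rose. At least 2-fold and called were 5 higher and 7 lower of the 32, against 14.1% and 18.6% of all genes. The split by direction was not tested. Hmox1, haem oxygenase and also a classic NRF2 target, gave 2227, 2352, 2752, 2007 and 2585 before and 14835, 20379, 12476 and 18835 after culture (limma log2 fold change 2.78, SE 0.136, adjusted p = 8.94e-10). Bhlhe41, a transcriptional repressor, rose by 2.00 on the log2 scale (adjusted p = 6.99e-09), and Mxi1, an antagonist of MYC, by 1.00 (2.85e-08). Epas1, which encodes HIF-2 alpha, gave 14445, 20538, 19098, 18729 and 13509 before and 1058, 1181, 1194 and 983 after culture (limma log2 fold change −3.95, SE 0.122, adjusted p = 1.41e-11). Endothelium, whose marker sum fell without overlap, is a known site of Epas1, and the part of those cells in this change was not tested. Siah2, a ubiquitin ligase for the prolyl hydroxylases (−2.63, 5.81e-10), and Wsb1 (−1.13, 1.26e-08) followed. Vegfa, named after its value was seen because it is the best known HIF target, went from 4122 ± 639 to 1447 ± 569 (limma log2 fold change −1.57, SE 0.203, adjusted p = 1.24e-05). The risers and fallers of this list thus lie on both sides, as did those among the 41.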

How the data were processed

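RNA of 9 samples was sequenced, 5 before and 4 after 18 h of culture. The authors deposited 1 table of normalized counts, a signal in units of reads divided by 1 factor per sample, and per the submitters' processing notes they used GRCm38 and DESeq2. The aligner, counter, strandedness and annotation are not given in the sources used here. All values (100.0%, within 0.001 read) were whole multiples of 1 read, so whole reads were recovered. Rows without a symbol, 3782 of 49317, held 3.87 to 10.9% of reads and were left out. Samples were grouped by their titles. Depth was 14.7 to 35.3 M named reads, and errors given are the spread between samples.

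Genes with a mean of at least 10 (18202) were fitted as log2(value + 1), with group as the only term, a mean-variance trend and a two-sided test, in limma 3.58.1 (R 4.3.3), with Benjamini-Hochberg adjustment over all of them and a threshold of 0.05. A fold change on the log2(value + 1) scale understates changes of low genes. Ratios within families used the exact two-sided permutation test in Python 3.11.15. edgeR 4.0.16 and DESeq2 1.42.0 on recovered reads called 12562 and 12663 genes. Other alternatives were pseudocounts, filters, scalings, replicate blocks, a GC and length correction (mgcv 1.9.3), and leaving out samples. Lengths, shared sequence and positions came from GENCODE M21, levels per kilobase used the principal mRNA, and promoters came from RefSeq. The fits were tested on simulated data.

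The 41 genes and all lists were chosen with earlier results of these data known. Per-sample values are given for genes past the threshold with at least a 2-fold change and for the main gene of a family, and of the other pathway genes up to 3 per list and direction with the smallest adjusted p are named, with exceptions stated. A gene this rule would also name is not reported here. Of 73 other pathway genes 68 passed the filter, and 1 was matched by a synonym.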

Additional observations from a re-analysis of the deposited data

Results flagged for a closer look

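A sample was singled out where its gap to the nearest other sample of its group, over the range of the group, passed Dixon's 95% value. Over 108 groups of values this happened 5 times, where 1 in 20, or 5.4, is the number that chance gives. In 4 of them the sample was uncultured sample 4, which lay below the other 4. Its normalized count was 4064 for Hk2, against 5103 to 5520 in the others, and 1148 for Pgam1, against 1927 to 2041. For Rpia it was 315, against 405 to 438, and for Tkt 7427, against 9788 to 10652. The log2 ratio of Pfkfb4 over Pfkfb3 in uncultured sample 2 was −1.42, above the range of −1.67 to −1.63 in the other 4.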

How the results depend on the processing

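The number of the 41 genes called stayed at 26 to 32 over all alternatives. That of the other pathway genes stayed at 41 to 50, with 62 to 73 tested depending on the setting. Among all genes, fits of the full 18202 called 11646 to 12836. Without the filter 14150 of 31592 were called, and 9925 of 13551 with a minimum mean of 50. With the GC and length correction 11912 of 17535 were called. Of 369 fold changes with 1 sample left out 347 kept direction and call, as did 539 of 573 under the 14 other alternatives. Further genes that did not pass in the main fit were called lower with samples left out. Pfkfb4 was so without cultured sample 2 (−0.29, limma adjusted p = 0.00819) or both libraries numbered 3 (−0.28, 0.0192). Aldoc was so without uncultured sample 5 (−0.32, 0.0216) and P4ha1 without cultured sample 2 (−0.27, 0.0354). Without uncultured sample 4 it held for Ldhb (−0.46, 0.0361) and Rpia (−0.30, 0.0214). The GC and length correction turned Hk1 to 0.46, Pfkl to 0.044, Pfkfb4 to 0.27, Aldoc to 0.049, Tpi1 to 0.20, Pgls to 0.035, Egln1 to 0.14, Bnip3 to −0.028 and Ddit4 to 0.16, and the cause was not tested. It moved the medians of glucose transporters to −0.47, of lactate and pyruvate genes to −0.67 and of upper glycolysis, without Aldoa, to 0.05. The median of lower glycolysis went to 0.58, that of pentose phosphate genes to 0.67 and that of oxygen sensing to 0.37. That of all genes moved to 0.13. Upper quartile scaling moved the median of all genes to 0.11 and that of oxygen sensing to 0.26. With 1 sample left out the sign changed for Tpi1 (−0.27 to 0.017), Pgam1 (−0.014 to 0.30), Eno1 (−0.025 to 0.28), Pkm (−0.056 to 0.25) and Tkt (−0.057 to 0.17), and Tkt was −0.011 without both libraries numbered 3. The number of family ratios past the threshold was 0 to 10 with 1 sample left out, and the 0 came without cultured sample 1, where 8 samples could not reach it with 9 ratios at the smallest p.

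Same-numbered samples correlated at 0.08, 0.08, −0.21 and −0.04 in their deviations from the group means by title number, and at 0.08, 0.25, 0.35 and 0.04 by library number. By library number each of the 4 cultured samples correlated best with the uncultured sample of its own number, a hint from the data and not from the design, but 2 of the 4 correlations were small, so the numbers were not taken as pairs. With the title number as a replicate block 28 of the 41 genes were called (11646 of all genes), and with the library number 32 (12836 of all genes). Under the library block Gapdh, Pgam1, Ldhb, Bnip3 and Ddit4 were added to the calls. Depth limits little here, since the lowest of the 41, Ankrd37, was read at 26.5 or more normalized counts in every sample.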
